A study of Homo sapiens with 29 samples.

Results

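EZH2, UHRF1 and TET1, 3 genes that write, maintain or remove chromatin marks, were followed in HepG2 cells cultured with or without CCL. They were chosen by symbol, with earlier results of these data known. The array's probe table gives them 4 probe sets, 1 each for EZH2 and UHRF1 and 2 for TET1. They are 3 of 14884 named genes, and all 3 were among the 6529 genes tested, those above log2 5 on at least 2 arrays. All 3 were lower in CCL-treated than in untreated cells over the mean of the 5 times compared: on the log2 scale EZH2 fell by 0.72 ± 0.14 (SE), UHRF1 fell by 0.80 ± 0.18 and TET1 fell by 0.75 ± 0.18.

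HepG2 is an established human liver cancer cell line, and CCL is the herb Cratoxylum cochinchinense Lour. Total RNA was measured on 29 Affymetrix HuGene 2.0 ST arrays, whose values are deposited as log2 expression. The untreated arm has 16 arrays, 2 at 0 h, 3 at 6 h, 3 at 12 h, 2 at 18 h, 3 at 24 h and 3 at 48 h. The CCL arm has 13 arrays, 3 at 6 h, 3 at 12 h, 3 at 18 h, 2 at 24 h and 2 at 48 h. Both arms are the same unmodified cell line, and the labels give no dose, no preparation and no solvent control for CCL. Arrays carry a set number from 1 to 3, whose meaning the labels do not give. Nothing in the labels says that the arrays of a group were separate cultures, and the p-values then reflect array-to-array spread only, which may be technical. The depth behind an array value is unknown, and the number of arrays limits the precision.

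EZH2 is the catalytic subunit of Polycomb repressive complex 2 (PRC2), which methylates lysine 27 of histone H3 at silenced genes. UHRF1 binds hemimethylated CpG sites behind the replication fork and brings in DNMT1, which copies the methylation to the new strand. TET1 oxidizes 5-methylcytosine, the first step of active DNA demethylation. EZH2 and UHRF1 are known as genes of proliferating cells, transcribed under E2F control, and are often abundant in liver cancer.

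Promoter windows from RefSeq (GRCh38.p14), 250 bases before to 50 bases after a start site, are shown for the sequence around 1 annotated start of each gene. For each gene the most upstream window in the table is printed. Capitals mark matches to E2F words (TTTGGCGC, TTTCCCGC, TTTCGCGC or TTTGCCGC) and to CCAAT, on either strand. The EZH2 gene lies at chr7:148807383-148884291, minus strand, and its window at chr7:148884242-148884541. The UHRF1 gene lies at chr19:4903080-4962154, plus strand, and its window at chr19:4909251-4909550. The UHRF1 window therefore lies inside the annotated gene, around an internal start, and the sequence at the gene's own first base was not used here. The TET1 gene lies at chr10:68560337-68694487, plus strand, and its window at chr10:68560087-68560386.
EZH2: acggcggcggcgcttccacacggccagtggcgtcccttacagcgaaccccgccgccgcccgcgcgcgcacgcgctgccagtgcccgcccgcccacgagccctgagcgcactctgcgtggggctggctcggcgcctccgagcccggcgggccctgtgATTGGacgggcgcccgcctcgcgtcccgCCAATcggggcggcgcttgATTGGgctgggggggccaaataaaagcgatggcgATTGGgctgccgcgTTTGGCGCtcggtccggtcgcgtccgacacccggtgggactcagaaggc
UHRF1: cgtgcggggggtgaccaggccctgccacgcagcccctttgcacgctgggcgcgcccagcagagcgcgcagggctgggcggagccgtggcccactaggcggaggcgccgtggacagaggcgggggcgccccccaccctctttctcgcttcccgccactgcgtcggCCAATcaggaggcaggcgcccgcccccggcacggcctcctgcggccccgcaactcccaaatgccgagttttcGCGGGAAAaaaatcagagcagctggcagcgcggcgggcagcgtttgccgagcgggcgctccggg
TET1: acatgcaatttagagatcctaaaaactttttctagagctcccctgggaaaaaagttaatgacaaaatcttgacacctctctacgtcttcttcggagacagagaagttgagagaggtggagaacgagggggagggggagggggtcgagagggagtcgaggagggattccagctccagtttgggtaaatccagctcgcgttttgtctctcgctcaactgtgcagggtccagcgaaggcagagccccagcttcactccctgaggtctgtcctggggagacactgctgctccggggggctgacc

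The EZH2 window held 1 E2F match, at bases 2 to 9 after the start, and 4 CCAAT matches between bases -94 and -9. The UHRF1 window held 1 E2F match, at bases -14 to -7, and 1 CCAAT match at bases -86 to -82. The TET1 window held no match to either. Of 35116 windows of the same length in the table, 3.31% held an E2F word and 34.6% held CCAAT. The GC box GGGCGG, present in 45% of windows, matched 4 times in EZH2, 2 times in UHRF1 and not in TET1. The CHR words TTTGAA and TTTAAA, present in 24% of windows, and the NRF1 motif, present in 1.24%, had no match in any of the 3 windows. No word overlapped a word of another motif in these windows. GC content was 74.7% in EZH2, 74% in UHRF1 and 54.3% in TET1, with 46, 36 and 10 CpG sites. These CpG counts were above those of 97.1%, 87.3% and 43.6% of all windows. Of the further windows, the next one of UHRF1 held 1 E2F match and 2 CCAAT matches, and both others of TET1 held 2 CCAAT matches each. The other window of EZH2 and the last window of UHRF1 held no match to either. The printed EZH2 and UHRF1 windows thus both hold E2F and CCAAT words, and the printed TET1 window holds neither. For UHRF1 this describes the internal start only, and a match is a description of the letters and not of a bound site.

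Before the levels, 6 arrays have to be named. They are untreated 18 h set 1, untreated 24 h set 1, CCL 6 h set 1, CCL 18 h set 3, CCL 24 h set 1 and CCL 48 h set 1. Each held between 5181 and 6868 distinct values over 53617 probe sets, against 46408 to 46882 on each of the other 23 arrays. Arrays outside the 6 shared at least 4857 exact values with each other, and 1 of the 6 shared at most 270 with any other array. The medians of the 6 arrays ran from 2.29 to 3.39, and those of the other 23 from 2.51 to 3.07. Among these 23 the 12 h arrays of both arms had medians from 2.51 to 2.54, and the other 17 from 2.94 to 3.07. The 12 h arrays shared at least 6102 values with each other and at most 5303 with those 17. Levels at 12 h set against other times, in either arm, may carry this shift, whose source was not tested. The differences of EZH2, UHRF1 and TET1 between arms and times are given with and without these arrays, and without them untreated 18 h, CCL 24 h and CCL 48 h keep 1 array each, whose spread is taken from the other groups.

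EZH2 in untreated cells was 7.49 and 7.24 on the 2 arrays at 0 h, and 7.27, 7.75 and 7.32 at 6 h. At 12 h it was 7.16, 7.05 and 6.89, at 18 h 6.96 and 6.99, at 24 h 6.62, 6.86 and 7.14, and at 48 h 7.08, 7.15 and 7.004. In CCL-treated cells it was 6.97, 7.04 and 6.51 at 6 h, 6.53, 6.50 and 5.85 at 12 h, and 6.77, 6.64 and 6.53 at 18 h. All 3 CCL arrays at each of these times lay below the untreated ones. At 24 h the CCL arrays read 5.65 and 6.74, and at 48 h they read 5.04 and 6.64. At 48 h too both CCL arrays lay below every untreated array, and at 24 h set 2 of the CCL arm lay above the lowest untreated array. The highest group mean was that of untreated cells at 6 h, 7.45 ± 0.26 (SD, n = 3), and the lowest that of CCL-treated cells at 48 h, 5.84 ± 1.13 (SD, n = 2). The order of the means put all 6 untreated groups above all 5 CCL groups, but the neighbours across that border, untreated 24 h at 6.87 ± 0.26 (SD, n = 3) and CCL 6 h at 6.84 ± 0.29 (SD, n = 3), differed by less than their spread.

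UHRF1 in untreated cells was 8.40 and 7.60 at 0 h, and 7.98, 8.07 and 7.83 at 6 h. At 12 h it was 7.81, 7.88 and 7.37, at 18 h 7.49 and 7.70, at 24 h 7.42, 8.15 and 7.79, and at 48 h 7.79, 7.82 and 7.91. In CCL-treated cells it was 7.97, 8.30 and 7.52 at 6 h, 7.31, 7.33 and 6.52 at 12 h, and 6.98, 7.47 and 6.70 at 18 h. The arms overlapped at 6 h, where a CCL array was the highest of all 6. At 24 h the CCL arrays read 5.83 and 7.45, and at 48 h 5.32 and 7.11. Every CCL array lay below every untreated array at 12, 18 and 48 h, by a gap of 0.0434 at 12 h, 0.0146 at 18 h and 0.685 at 48 h. The CCL mean at 6 h, 7.93 ± 0.39 (SD, n = 3), stood beside the untreated mean of 7.96 ± 0.12 (SD, n = 3). The later CCL means, from 7.05 ± 0.46 (SD, n = 3) at 12 h to 6.21 ± 1.26 (SD, n = 2) at 48 h, were below all untreated means, of which that at 18 h was lowest, 7.59 ± 0.15 (SD, n = 2).

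TET1, on its brighter probe set, was 6.24 and 6.76 in untreated cells at 0 h, and 6.08, 6.21 and 6.85 at 6 h. At 12 h it was 5.90, 6.25 and 6.25, at 18 h 5.08 and 6.30, at 24 h 5.86, 6.68 and 6.96, and at 48 h 6.71, 6.77 and 6.90. In CCL-treated cells it was 5.38, 5.70 and 6.15 at 6 h, 5.14, 5.43 and 4.93 at 12 h, and 6.09, 6.00 and 5.63 at 18 h. The arms overlapped at 6, 18 and 24 h and were apart at 12 and 48 h. At 24 h the CCL arrays read 4.27 and 6.00, and at 48 h 5.28 and 6.30. The lowest value of all was on CCL 24 h set 1, and the untreated 18 h array of set 1 also lay far below its partner, so that the 18 h untreated mean of 5.69 ± 0.86 (SD, n = 2) was below the CCL mean of 5.91 ± 0.24 (SD, n = 3). Both low arrays are among the 6. The second TET1 probe set was dim, between 1.87 and 2.98 on all 29 arrays and above log2 5 on none, and its arms overlapped at all 5 times.

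**Figure D1:**
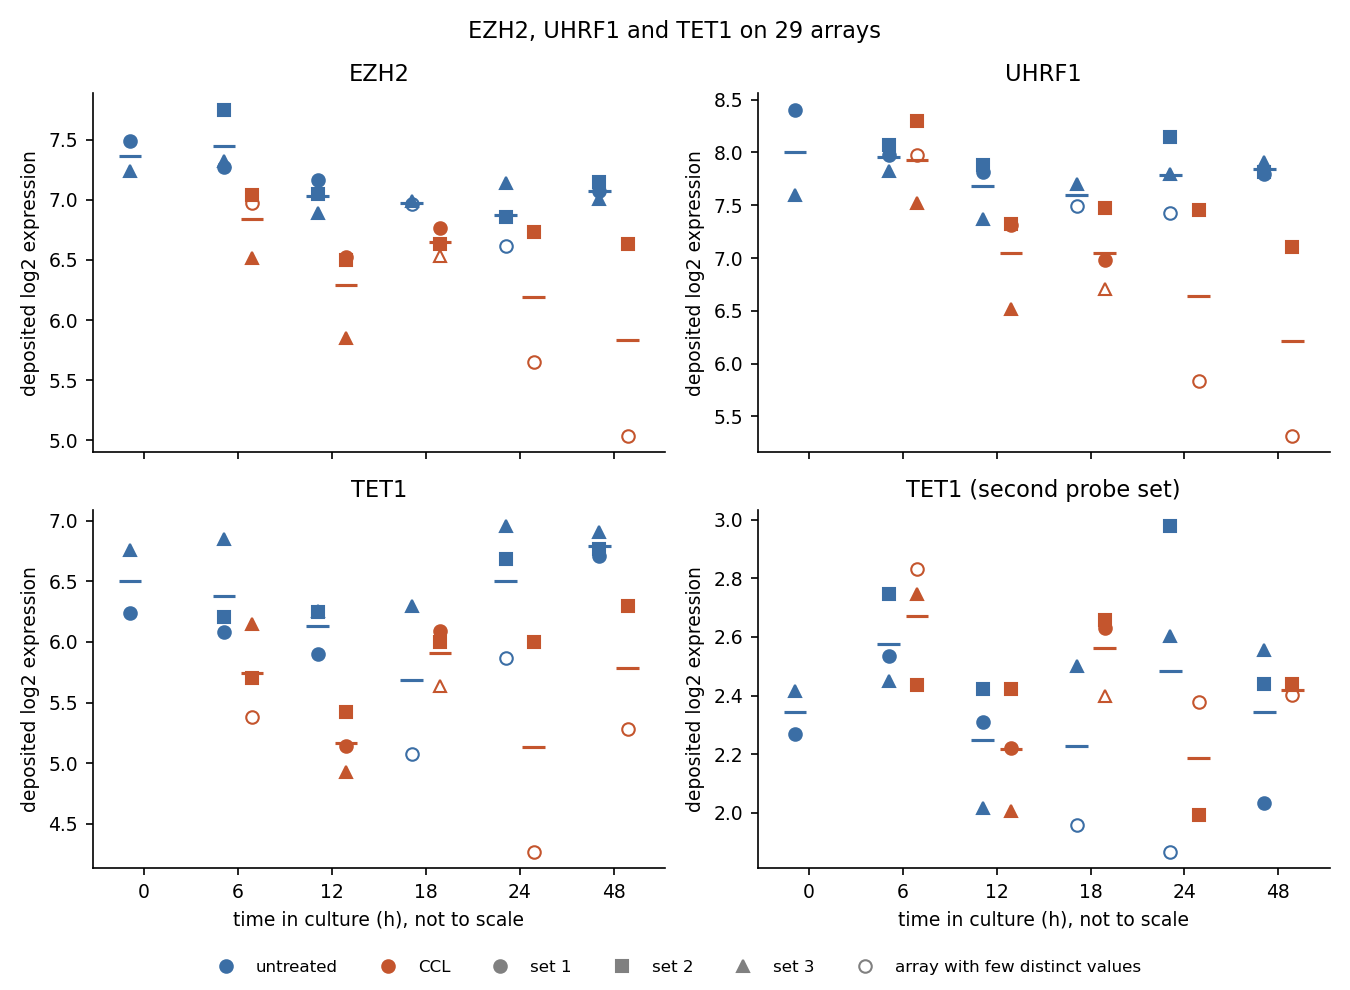
Deposited log2 expression (y axis) of the 4 probe sets on each array against time (x axis, in h). Colour is the arm, shape the set, bars are group means, and open symbols are the 6 arrays with few distinct values. The lowest EZH2 and UHRF1 values, 5.04 and 5.32, are those of CCL 48 h set 1, and the second TET1 probe set stays between 1.87 and 2.98.

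The comparison of CCL with untreated cells used limma, with p-values adjusted by the Benjamini-Hochberg method over the 6529 genes. Called genes are those with an adjusted p under 0.05, for which alone rose or fell is written, and ± is the standard error of that model. Over the mean of the 5 times all 3 genes fell. EZH2 fell 1.65-fold (adjusted p = 0.000559), UHRF1 1.74-fold (adjusted p = 0.00199) and TET1 1.68-fold (adjusted p = 0.00269). Of all tested genes, 721, or 11%, were called lower in this comparison. Ranked from the most lowered, UHRF1 was 100th, TET1 125th and EZH2 153rd of 6529. Without the 6 arrays the ranks were 321 for UHRF1, 160 for TET1 and 324 for EZH2.

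Without the 6 arrays the mean differences were smaller for each gene and were still called. EZH2 fell by 0.48 ± 0.11 (adjusted p = 0.00447), UHRF1 fell by 0.48 ± 0.15 (adjusted p = 0.0257) and TET1 fell by 0.60 ± 0.12 (adjusted p = 0.00151). An exact permutation of the arm labels within each time, over 400000 regroupings, gave two-sided p = 5e-06 for EZH2, 0.00031 for UHRF1 and 0.0018 for TET1. Without the 6 arrays, over 7200 regroupings, the exact p was 0.000139 for EZH2, the smallest these can give, 0.00333 for UHRF1 and 0.000278 for TET1. The second TET1 probe set differed by 0.04 ± 0.11 between the arms, with an adjusted p of 0.885 in a limma fit of every named probe set. The TET1 result thus rests on 1 of its 2 probe sets, the other giving no signal above log2 5.

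Compared within sets, EZH2 was lower in the CCL array in 12 of 12 pairs of the same set and time. UHRF1 was lower in 11 of 12 pairs and TET1 in 11 of 12. In the 7 pairs that hold none of the 6 arrays, EZH2 was lower in 7, UHRF1 in 6 and TET1 in 7. The second TET1 probe set was lower in 5 of 12. The share of all genes with such counts was not computed, and arrays are matched by set number only, whose meaning is not given.

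At single times the calls were fewer. At 6 h EZH2 differed by -0.60 ± 0.30 (adjusted p = 0.633), TET1 by -0.64 ± 0.37 (adjusted p = 0.756) and UHRF1 by -0.03 ± 0.38 (adjusted p = 0.996). With the 6 arrays left out these were -0.67 ± 0.21, -0.45 ± 0.23 and -0.05 ± 0.28, with adjusted p of 0.103, 0.382 and 0.967. None was called with all arrays, against 0.0306% of genes called lower, and the arms were apart for EZH2 alone, as they were, with CCL below, for 13.8% of all genes. At 12 h the differences were -0.74 ± 0.30 for EZH2 (adjusted p = 0.299), -0.64 ± 0.38 for UHRF1 (adjusted p = 0.59) and -0.97 ± 0.37 for TET1 (adjusted p = 0.253). None was called, against 0.199% of genes, although all 3 had CCL arrays wholly below untreated ones, as did 21.4% of all genes. None of the 6 arrays is from 12 h, where each arm has 3 arrays. With them left out of the shared spread the 12 h differences were the same, and EZH2 (adjusted p = 0.0158) and TET1 (adjusted p = 0.00506) were called. UHRF1 was not (adjusted p = 0.118). That fit called 492 of 6529 genes lower at 12 h, against 13 with all arrays.

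At 18 h EZH2 differed by -0.33 ± 0.33 (adjusted p = 0.49), UHRF1 by -0.54 ± 0.42 (adjusted p = 0.367) and TET1 by 0.22 ± 0.41 (adjusted p = 0.714). None was called, against 0.184% of genes, and EZH2 and UHRF1 were among the 2.56% of genes with CCL wholly below untreated. The median of all tested genes at 18 h was itself 0.415, and -0.027 without the 6 arrays. Without them EZH2 differed by -0.29 ± 0.28 and UHRF1 by -0.47 ± 0.38. The TET1 difference changed sign to -0.25 ± 0.30, and also turned negative after quantile normalization and after equalizing the array medians. At 24 h EZH2 differed by -0.68 ± 0.33 (adjusted p = 0.355), UHRF1 by -1.14 ± 0.42 (adjusted p = 0.16) and TET1 by -1.37 ± 0.41 (adjusted p = 0.0745). None was called, against 0.475% of genes, and none had its arms apart, as 5.39% of genes did. These became -0.27 ± 0.28, -0.52 ± 0.38 and -0.82 ± 0.30 when the 6 arrays were left out.

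At 48 h EZH2 fell by 1.24 ± 0.33 on the log2 scale, or 2.36-fold (adjusted p = 0.0305). UHRF1 fell by 1.63 ± 0.42, or 3.09-fold (adjusted p = 0.0242). TET1 differed by -1.01 ± 0.41 and was not called (adjusted p = 0.126). Here 5.22% of genes were called lower, 29.5% had CCL wholly below untreated, and the median of all tested genes was -0.259. Set 1 and set 2 of the CCL arm differed widely. EZH2 was 5.04 on set 1 and 6.64 on set 2, UHRF1 5.32 and 7.11, and TET1 5.28 and 6.30, while the 3 untreated arrays had SDs of 0.073, 0.062 and 0.099. Without set 1, which is among the 6 arrays, the differences were -0.44 for EZH2, -0.73 for UHRF1 and -0.50 for TET1, and none was called (adjusted p = 1 for each). Leaving out any single untreated 48 h array also ended the EZH2 and UHRF1 calls, with adjusted p between 0.0538 and 0.101. Set 2 alone still lay below all 3 untreated arrays for each gene, as it did for at least the 29.5% of genes with both CCL arrays below. An exact permutation test of 2 against 3 arrays gave p = 0.1 for each gene, the smallest that 5 arrays allow.

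**Figure D2:**
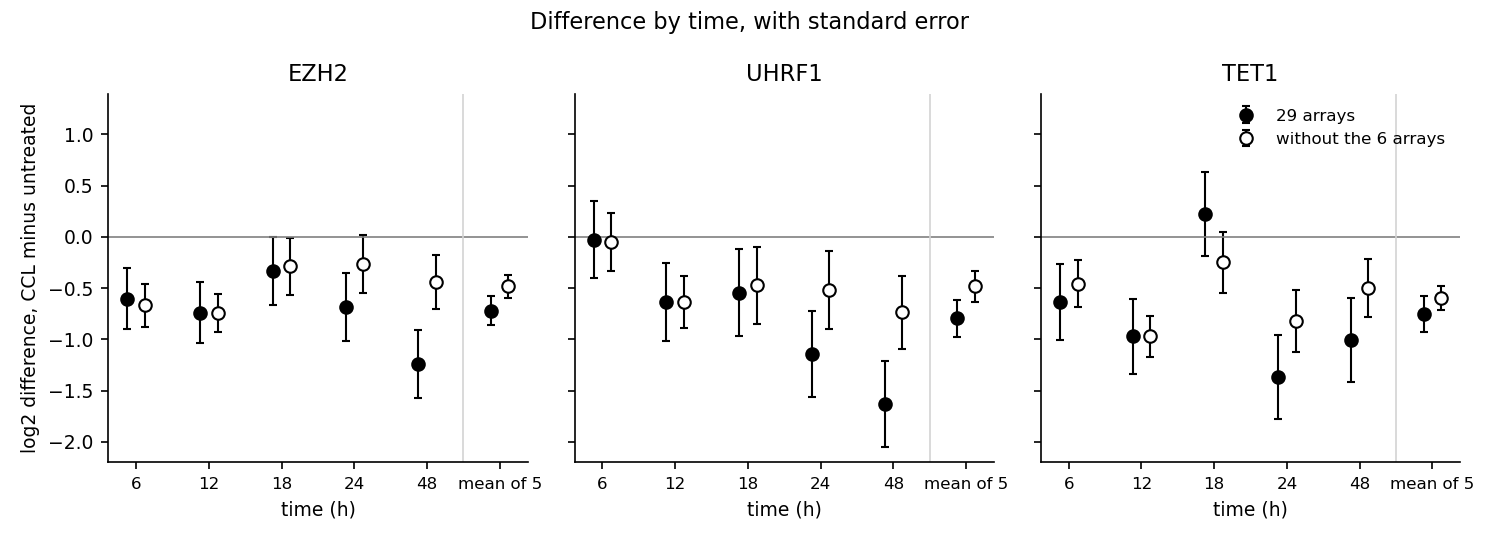
Difference between CCL-treated and untreated cells on the log2 scale (y axis) at each time in h and over the mean of 5 times (x axis), with standard errors from limma. Filled circles use 29 arrays and open circles leave out the 6 arrays. At 48 h EZH2 goes from -1.24 to -0.44 and UHRF1 from -1.63 to -0.73, while the means over the 5 times stay below 0 for each gene.

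Whether the difference changed over time was tested directly. The F-test of the 5 effects gave adjusted p = 0.649 for EZH2, 0.45 for UHRF1 and 0.451 for TET1, and it called 1 of 6529 genes, or 0.0153%. The UHRF1 effect at 48 h minus that at 6 h was -1.60 ± 0.57 (unadjusted p = 0.00891, adjusted p = 0.854), in a contrast that also called 0.0153% of genes. The same difference was -0.64 ± 0.45 for EZH2 and -0.37 ± 0.55 for TET1. These values moved with the 6 arrays. Without them UHRF1 gave -0.69 ± 0.45, EZH2 turned to 0.23 ± 0.34 and TET1 gave -0.05 ± 0.36, each with an adjusted p of 0.999. Within the CCL arm, UHRF1 fell by 1.72 ± 0.42 from 6 h to 48 h (adjusted p = 0.0464), where 0.842% of genes were called lower. That call was lost without the 6 arrays (-0.80 ± 0.38, adjusted p = 0.496). Over the same interval EZH2 differed by -1.01 ± 0.33 (adjusted p = 0.135) and TET1 by 0.04 ± 0.41 (adjusted p = 0.97). Without the 6 arrays these became -0.14 ± 0.28 (adjusted p = 0.933) and 0.37 ± 0.30 (adjusted p = 0.76).

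Untreated cells were compared with their own 0 h arrays. At 48 h against 0 h EZH2 differed by -0.28 ± 0.33, UHRF1 by -0.16 ± 0.42 and TET1 by 0.29 ± 0.41, each with an adjusted p of 0.999. In that comparison limma called 0 of 6529 genes (0%), and 82 genes had an unadjusted p under 0.05. The 2 UHRF1 values at 0 h had an SD of 0.57, so their mean is loosely set. None of the 6 arrays is from 0 h or 48 h of this arm. At times between, the largest TET1 difference from 0 h was as large as its mean difference between the arms, -0.75, but only with all arrays. The largest of EZH2 and UHRF1 were smaller than their mean differences between the arms, -0.72 and -0.80. TET1 at 18 h differed by -0.82 ± 0.45 (adjusted p = 0.513), and by -0.21 ± 0.30 without the 6 arrays. EZH2 at 24 h differed by -0.49 ± 0.33 (adjusted p = 0.986), and by -0.36 ± 0.23 without them. The largest UHRF1 difference, at 18 h, was -0.41 ± 0.46 (adjusted p = 0.731), and -0.30 ± 0.38 without them.

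The 6 arrays did not carry the 3 genes alike. Against the other arrays of its own group, CCL 48 h set 1 differed by -1.60 for EZH2, -1.79 for UHRF1 and -1.01 for TET1, where the median of all tested genes was -0.463. CCL 24 h set 1 differed by -1.09, -1.62 and -1.74, with a median of -0.261. On CCL 48 h set 1, 5.71% of genes were shifted further down than EZH2 and 3.92% further than UHRF1, and on CCL 24 h set 1 these shares were 7.21% and 1.59%. On CCL 6 h set 1 EZH2 was 0.20 and UHRF1 0.06 higher than on the other arrays of that group. TET1 was lower on all 6 arrays, with differences from -1.74 to -0.41, and on the 2 untreated ones it differed by -1.22 and -0.96, where the median gene differed by -0.614 and -0.509. What made the 6 arrays differ, and its part in the results, was not tested.

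Across the 29 arrays, each shifted to a common median, EZH2 and UHRF1 had a Pearson r of 0.914. Within groups, that is after each group's mean was removed, r was 0.884, with the 6 arrays included. Over the 23 arrays without the 6, with group means kept, it was 0.755. An r within groups without the 6 arrays was not computed. TET1 followed them less closely, with r = 0.597 to EZH2 and 0.581 to UHRF1 over 29 arrays, and 0.459 and 0.309 over 23. UHRF1 was 11th of 6528 genes in likeness to EZH2, EZH2 13th in likeness to UHRF1, and TET1 952nd and 809th. These arrays share treatment, time and scaling, so the values are descriptions.

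The 4 genes most like EZH2 over the 29 arrays were EXO1, a DNA exonuclease (r = 0.946), POGLUT3, a protein O-glucosyltransferase (0.935), WDHD1, a replication fork protein (0.931), and LMNB1, lamin B1 (0.927). Those most like UHRF1 were GINS2 of the replicative helicase (0.954), GLDC of the glycine cleavage system (0.952), LMNB1 (0.95) and UNG, the uracil DNA glycosylase (0.944). For TET1 they were KITLG, the ligand of KIT (0.896), GXYLT2, a xylosyltransferase (0.885), GAS2L3, a cytoskeletal linker (0.884), and NMT2, an N-myristoyltransferase (0.877). TET1 shared none of its 4 with the other genes, whereas LMNB1 stood in the lists of both EZH2 and UHRF1. At the opposite end were S100P (-0.835) and RGCC (-0.829) for EZH2, BMP6 (-0.861) and RGCC (-0.858) for UHRF1, and BCAR1 (-0.831) and TNXA (-0.807) for TET1. TNXA is a copy of part of TNXB, and the probe set may read both. Over the 23 arrays without the 6, the r of the 4 most alike genes ran from 0.813 to 0.905 for EZH2, 0.849 to 0.924 for UHRF1 and 0.846 to 0.908 for TET1. The opposite ends weakened to -0.649 and -0.601 for EZH2, -0.605 and -0.616 for UHRF1, and -0.808 and -0.686 for TET1.

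**Figure D3:**
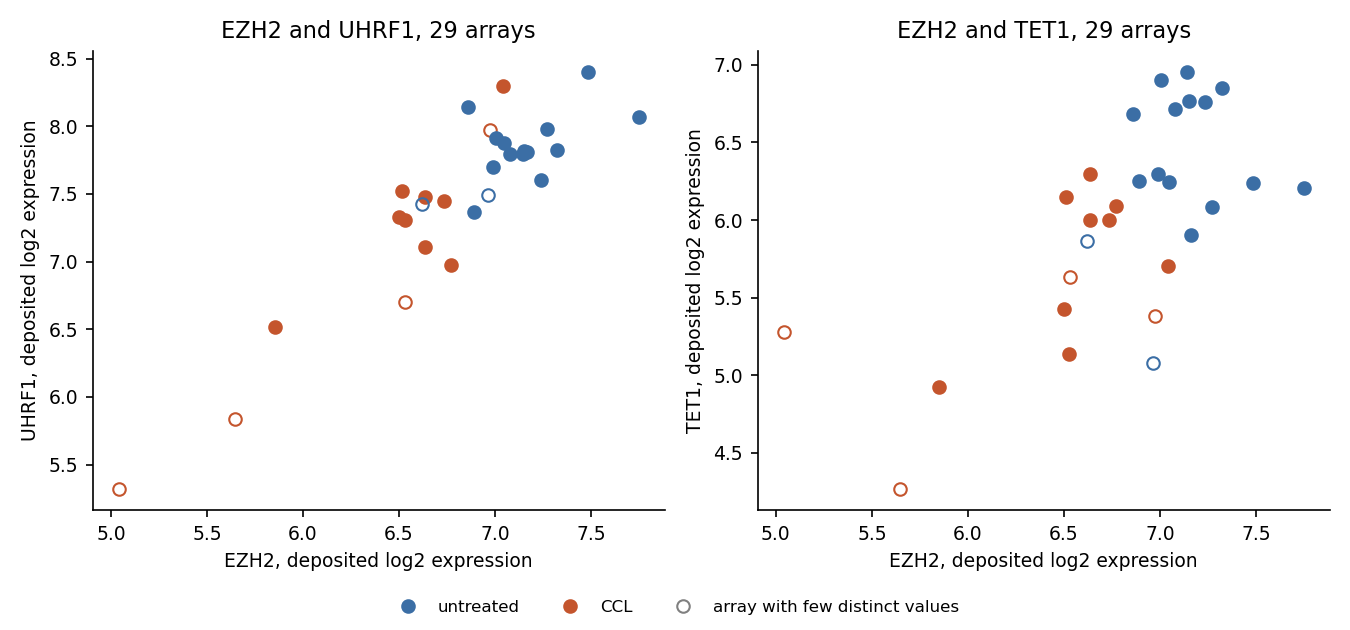
Deposited log2 expression of UHRF1 (left) and TET1 (right) against EZH2 on 29 arrays, coloured by arm, with the 6 arrays open. EZH2 and UHRF1 lie along a line down to 5.04 and 5.32 on CCL 48 h set 1, and TET1 is more scattered.

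The counts for related genes are read against all 6529 tested genes, of which 13.6% were called higher and 11% lower over the mean of the 5 times. Without the 6 arrays these shares were 9.71% and 13.8%. PRC2 needs SUZ12 and EED for activity, and EZH1 is the second catalytic subunit. Of 10 tested PRC2 subunits and partners, over the mean of the 5 times 1 rose and 1 fell, shares near those of all genes, with a median of -0.0783 against 0.0146 for all genes. RBBP7, a histone-binding subunit, fell by 0.37 ± 0.08, and PHF1, an accessory subunit, rose by 0.57 ± 0.12. EZH1 differed by 0.30 ± 0.16 (adjusted p = 0.178) and SUZ12 by -0.12 ± 0.12 (adjusted p = 0.499). EED and JARID2 were not analysed here. Of 11 PRC1 subunits, which form the partner complex, 2 rose and none fell, against 13.6% of all genes higher. They were PHC2, by 0.37 ± 0.10, and PCGF2, by 0.34 ± 0.12. Of 9 genes for enzymes that oppose PRC2, KDM6B, which removes the lysine 27 methyl groups, rose by 0.56 ± 0.16 and MEN1, a subunit of trithorax complexes, fell by 0.37 ± 0.11. KDM6A, the related demethylase, differed by 0.10 ± 0.19 (adjusted p = 0.731). With the 6 arrays left out, 1 PRC2 gene rose and 2 fell, 1 PRC1 gene rose, and 1 of the opposing genes fell.

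Among partners of UHRF1, DNMT1, which it recruits, differed by 0.00 ± 0.09 (adjusted p = 0.999). The de novo methyltransferases DNMT3A and DNMT3B differed by 0.22 ± 0.11 (adjusted p = 0.149) and -0.31 ± 0.13 (adjusted p = 0.0855). Of 7 genes tested in the list of DNA methyltransferases and maintenance partners, 3 fell and none rose, where 11% of all genes fell. They were CDCA7, a partner of the remodeller HELLS, by 1.16 ± 0.20, a larger value than those of EZH2, UHRF1 and TET1, PCLAF, a PCNA-binding protein, by 0.74 ± 0.14, and PCNA, the replication clamp, by 0.62 ± 0.14. UHRF2 and HELLS were not analysed here. With the 6 arrays left out, 4 of the 7 fell, where 13.8% of all genes did. Of 8 histone H3 lysine 9 methyltransferases and HP1 proteins, whose mark UHRF1 also reads, 3 fell and none rose, where 11% of all genes fell, SUV39H2 by 0.56 ± 0.17, EHMT2 by 0.35 ± 0.11 and CBX3 by 0.34 ± 0.11. The same count of 3 was lower without the 6 arrays.

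Around TET1, its relative TET2 differed by -0.18 ± 0.18 (adjusted p = 0.518) and TET3 was not analysed here. TDG, the glycosylase that removes oxidized cytosines, differed by -0.07 ± 0.15 (adjusted p = 0.774). Of 9 genes tested for the TET family and DNA demethylation, MBD4, a mismatch glycosylase, fell by 0.44 ± 0.14 and none rose, a share near the 11% of all genes. Of 5 tested readers of methylated CpG sites, 2 rose, ZBTB38 by 0.54 ± 0.11 and ZBTB4 by 0.53 ± 0.14, where 13.6% of all genes rose. Of these readers 1 rose without the 6 arrays.

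The counts of cell cycle genes stand beside 11% of all genes called lower, or 13.8% without the 6 arrays. Of 13 tested E2F and pocket protein genes, 7 fell and none rose, and 7 were lower without the 6 arrays. E2F8 fell by 0.88 ± 0.17, E2F7 by 0.80 ± 0.16, cyclin E2 (CCNE2) by 0.74 ± 0.19 and RBL1, a pocket protein, by 0.70 ± 0.14, and E2F7 and E2F8 are repressors of E2F targets. E2F1, an activator, differed by -0.09 ± 0.14 (adjusted p = 0.672). Of 20 tested G1/S and DNA replication genes 17 fell, and of 17 G2 and M phase genes 16 fell, with medians of -0.501 and -0.665. GINS1 and GINS2 fell by 1.07 ± 0.20 and 1.01 ± 0.18, and KIF20A and KIF11, mitotic motors, by 1.33 ± 0.20 and 1.18 ± 0.21. MKI67, a marker of cycling cells, fell by 0.69 ± 0.19 and CCNA2, cyclin A2, by 0.53 ± 0.11. The counts were 14 of 20 and 15 of 17 without the 6 arrays.

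**Figure D4:**
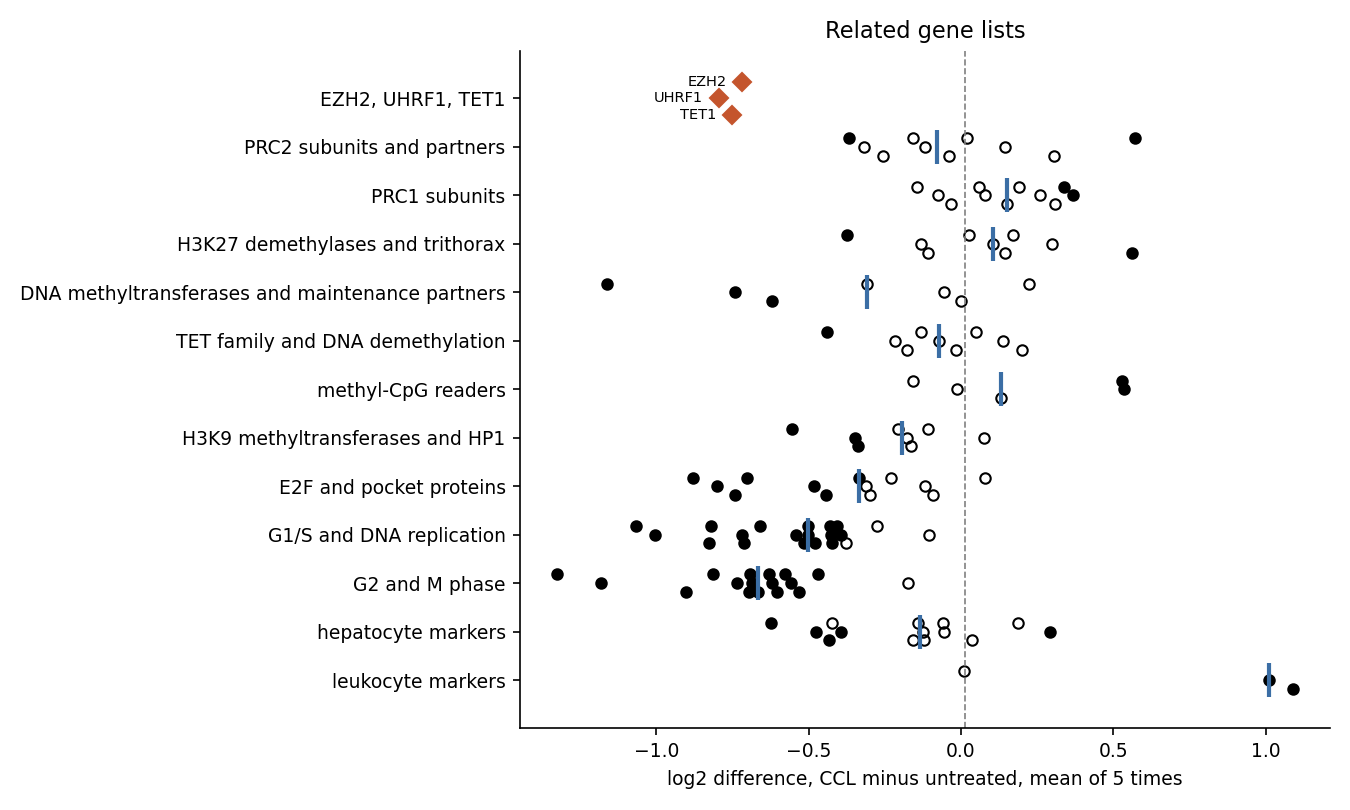
Log2 difference between CCL-treated and untreated cells over the mean of 5 times (x axis) for each tested gene of 12 lists (y axis), with EZH2, UHRF1 and TET1 as diamonds. Filled points were called, blue bars are list medians and the dashed line is the median of all genes, 0.0146. The 3 genes, from -0.80 to -0.72, lie below the medians of the replication and G2 and M phase lists, which are -0.501 and -0.665.

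At 48 h the replication and mitosis genes also differed between the 2 CCL arrays. Set 1 was below set 2 in 20 of 20 G1/S and replication genes, with a median of -1.74, and in 17 of 17 G2 and M phase genes, with a median of -1.39, against -0.463 for all genes. It was also below in 10 of 10 PRC2 genes, with a median of -0.79. The same held for 8 of 8 lysine 9 and HP1 genes (-1.04) and 7 of 7 DNA methyltransferases and partners (-1.02). Of the methyl-CpG readers 5 of 5 were below (-0.431), of PRC1 genes 7 of 11 (-0.121) and of genes opposing PRC2 5 of 9 (-0.405). The share of all genes below on set 1 was not computed. Hepatocyte markers had a median of -0.0676, with 10 of 14 below. Without the 6 arrays, the medians of the cell cycle lists at 48 h were -0.442 and -0.567, and 0 and 2 of their genes were called lower by limma, of 15 and 12 with all arrays. Of all genes, 5.22% were called lower at 48 h with all arrays and 0.0766% without the 6. In bulk RNA, fewer cells of a type and less RNA per cell cannot be told apart.

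Transcripts of liver cells were present, albumin (ALB) having a mean of 11.93 and alpha-fetoprotein (AFP) 10.74 over all arrays. The lowest mean among the 14 tested hepatocyte markers was 7.15, for APOA1. Whether the cells are HepG2 rests on the labels and was not tested. Of 14 hepatocyte markers 4 fell and 1 rose, where 11% of all genes fell and 13.6% rose. FGG and FGA, chains of fibrinogen, fell by 0.62 ± 0.14 and 0.48 ± 0.14. TTR fell by 0.43 ± 0.13 and APOA1 by 0.39 ± 0.14, and APOA2 rose by 0.29 ± 0.08. The median of the 14 was -0.133 against 0.0146 for all genes, and without the 6 arrays -0.225 against -0.0359. Named markers of fibroblasts (2 of 6 listed) and endothelium (3 of 5 listed) were below the filter, with array means from 1.75 to 3.20. Of 9 leukocyte markers 5 were named and 3 tested. CD68 and LAPTM5, both lysosomal proteins, rose by 1.09 ± 0.12 and 1.01 ± 0.12, where 13.6% of all genes rose. LYZ, lysozyme, the third tested, had a mean of 10.63 and differed by 0.01 ± 0.08 (adjusted p = 0.952). The mean of the 5 named leukocyte markers ran from 5.92 to 7.09 in CCL arrays and from 5.54 to 6.26 in untreated ones, with CD14 at a mean of 2.94 and TYROBP at 3.76. Their part in the results for EZH2, UHRF1 and TET1 was not tested.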

How the data were processed

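Values are log2 expression per probe set on the arrays, made by the authors. The submitters' processing notes name RMA and Affymetrix Expression Console 1.1. Which arrays were normalized together is not given in the sources used here, and no raw intensities were used. Gene symbols came from a platform annotation table. Of 53617, 16098 had 1 symbol, all matched to RefSeq (GRCh38.p14), and the other 37519 were not analysed here. For 779 genes with several probe sets the one with the highest mean was used. In R 4.3.3, limma 3.58.1 fitted 1 mean per arm-and-time group, using every array. The code was tested on simulated data. Set numbers were not blocked in the main fit, because the labels do not say what a set is. Of 12 pairs of same-set arrays, 9 had a correlation of deviations over 0.1 (range -0.0657 to 0.444). Arrays of a set may thus share some variation, and whether they are paired is not known. Fits with the set as a block are among the alternatives. EZH2, UHRF1 and both TET1 probe sets are named throughout. From each list, up to 4 called genes with the largest mean difference were eligible to be named, with partners and proliferation genes given whatever they showed, and the hepatocyte markers given as a check of the cells. Of 200 listed genes 142 had a named probe set and 126 were tested. The genes, lists and tests were chosen with earlier results of these data known. Alternatives covered normalization, filters, probe sets, array weights, set blocks and left-out arrays, and the exact permutation tests were added after seeing the data.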

Additional observations from a re-analysis of the deposited data

How the results depend on the processing

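The lower level of EZH2, UHRF1 and TET1 over the mean of the 5 times kept its direction under every alternative run, and its call in every limma fit. The exact permutations give unadjusted p-values and so no call. Across the settings it ranged from -0.77 to -0.48 for EZH2, -0.89 to -0.48 for UHRF1 and -0.80 to -0.60 for TET1. Leaving out 1 array at a time gave -0.88 to -0.56 for EZH2, -0.97 to -0.62 for UHRF1 and -0.93 to -0.58 for TET1, with adjusted p up to 0.0134 in limma.

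Results at single times were less stable, and where no reason is given the cause was not tested. At 48 h the calls of EZH2 (-1.24) and UHRF1 (-1.63) were lost with no filter, with every named probe set and with only the arrays compared, all at the same differences of -1.24 and -1.63. They were also lost with array weights (-1.29 and -1.61) and without the 6 arrays (-0.44 and -0.73). Gained calls at 12 h were EZH2 and TET1 with only the arrays compared or without the 6 arrays (-0.74 and -0.97), and EZH2 (-0.61), UHRF1 (-0.58) and TET1 (-0.90) with array weights. At 24 h UHRF1 (-1.48) and TET1 (-1.55) were called with array weights, and TET1 after quantile normalization (-1.44) and after equalizing the medians (-1.34). With the set number as a replicate block, UHRF1 (-1.28 fixed, -1.23 random) and TET1 (-1.27 fixed, -1.30 random) were called at 24 h, and no other call of the 3 genes changed. The uncalled TET1 difference at 18 h reversed to -0.24 after quantile normalization, -0.25 after equalizing the medians and -0.25 without the 6 arrays. The uncalled UHRF1 difference at 6 h reversed to 0.0723 after equalizing the medians and 0.0777 with array weights. In untreated cells UHRF1 at 48 h against 0 h, also uncalled, ran from -0.56 to 0.24 as single arrays were left out.

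Leaving out 1 array at a time gave, for EZH2, UHRF1 and TET1 in turn, -0.70 to -0.44, -0.21 to 0.18 and -0.84 to -0.40 at 6 h. At 12 h the ranges were -0.86 to -0.52, -0.79 to -0.37 and -1.10 to -0.85, and at 18 h -0.39 to -0.27, -0.75 to -0.37 and -0.39 to 0.83. At 24 h they were -1.23 to -0.14, -1.95 to -0.34 and -2.24 to -0.50. At 48 h they were -2.04 to -0.44, -2.52 to -0.73 and -1.51 to -0.50. The arrays whose absence changed a call were, at 24 h, CCL set 2 (UHRF1 -1.95, TET1 -2.24) and untreated set 1 (TET1 -1.69), and at 48 h CCL set 2 (TET1 -1.51), CCL set 1 and each untreated array (EZH2 and UHRF1).

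The number of genes called moved over 1.5 times with the settings at each single time. It was 20 at 6 h (19 with no filter to 296 with array weights), 81 at 12 h (58 with no filter to 2030 with array weights) and 815 at 18 h (13 with array weights to 1628 with every probe set). It was 197 at 24 h (45 with only the arrays compared to 525 with a fixed replicate block) and 428 at 48 h (0 with only the arrays compared, where limma gave 1087 genes an unadjusted p under 0.05, to 903 with a fixed replicate block). Over the mean of the 5 times it was 1606 (1256 to 2312), a move of less than 1.5 times. Leaving out 1 array moved it to between 6 (untreated set 2) and 18 at 6 h, and between 28 (untreated set 3) and 47 at 12 h. At 18 h it was between 24 (untreated set 1) and 2647 (untreated set 3). At 24 h it was between 20 (CCL set 1) and 383 (CCL set 2), at 48 h between 8 (CCL set 1) and 2106 (CCL set 2), and over the mean between 1193 and 2109.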
